A study of Homo sapiens with 12 samples.

Results

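WM35 is an established human melanoma cell line. The comparison described here set all 5 arrays labelled ciclopirox (3 at 8 h, 2 at 24 h) against all 5 arrays labelled crizotinib (3 at 8 h, 2 at 24 h), which are 10 of the 12 arrays of the series. Time was a covariate, and arrays were taken into the comparison by their titles. The cells had been exposed to either drug, each at a dose that the labels give as the 75% inhibitory concentration found over 72 h, and were harvested at 8 or 24 h. The other 2 arrays are DMSO vehicle controls whose titles give no time. They took no part in the fit, and their values are printed only as a level to read the drugs against. A difference between the drugs can come from either drug, and the comparison alone does not say which. All groups are 1 cell line, grown in medium with 5% serum, and whether the arrays of a group stand for separate cultures is not stated, so the p-values below measure no more than the scatter among arrays, and that scatter may be technical.

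Ciclopirox, a hydroxypyridone used against fungi, is an iron chelator. Crizotinib blocks the receptor tyrosine kinases MET, ALK and ROS1. Iron is a cofactor of the prolyl hydroxylases that mark the alpha subunits of hypoxia-inducible factor (HIF) for degradation, and iron chelators are known to stabilise HIF and raise its targets in oxygenated cells. Iron is also used by ribonucleotide reductase, which makes deoxynucleotides, and by the deoxyhypusine hydroxylase that completes the translation factor eIF5A. Kinase inhibitors of the MET class lower signalling through the MAPK and PI3K pathways. Other programmes named below are the integrated stress response, in which the transcription factor ATF4 drives amino acid synthesis and transport, and the sterol pathway, in which SREBP2 drives the enzymes of cholesterol synthesis when cells sense too little sterol.

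The 2 deposited tables did not place the same array under the same drug sample. One table holds raw signals by chip position, which the sample descriptions assign to samples, and the other holds normalized values in columns headed by sample. Each column of normalized values could be matched to 1 chip position, with a correlation of 0.96 to 0.99 across 8749 bright probes, while the highest correlation with any other position was 0.687. For 10 of the 10 drug samples the matched position was not the described one, with which the correlation was only -0.659 to 0.581, whereas the control positions coincided. The labels alone do not settle which assignment is right.

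The assignments differed in how alike arrays of 1 label were. With the columns of the value table, the correlation of probe-centred levels averaged 0.368 within labels (9 pairs, 0.163 to 0.624) and -0.152 between labels (57 pairs, at most 0.157), and 12 of 12 arrays were most like an array of their own label. With the described positions the averages were 0.153 within labels (-0.266 to 0.649) and -0.117 between labels (at most 0.517), and 5 of 12 arrays were most like their own label. Likeness within labels would stay the same if whole groups of equal size swapped names, so it cannot show which drug a group received. The results below use the columns of the value table. That choice was made after the files had been seen, and under the other assignment 565 of the 733 genes called below had the opposite sign, so the same comparison by the described positions is printed beside the main results. In both assignments each group fills neighbouring positions of 1 chip, so group and position cannot be told apart.

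**Figure D1:**
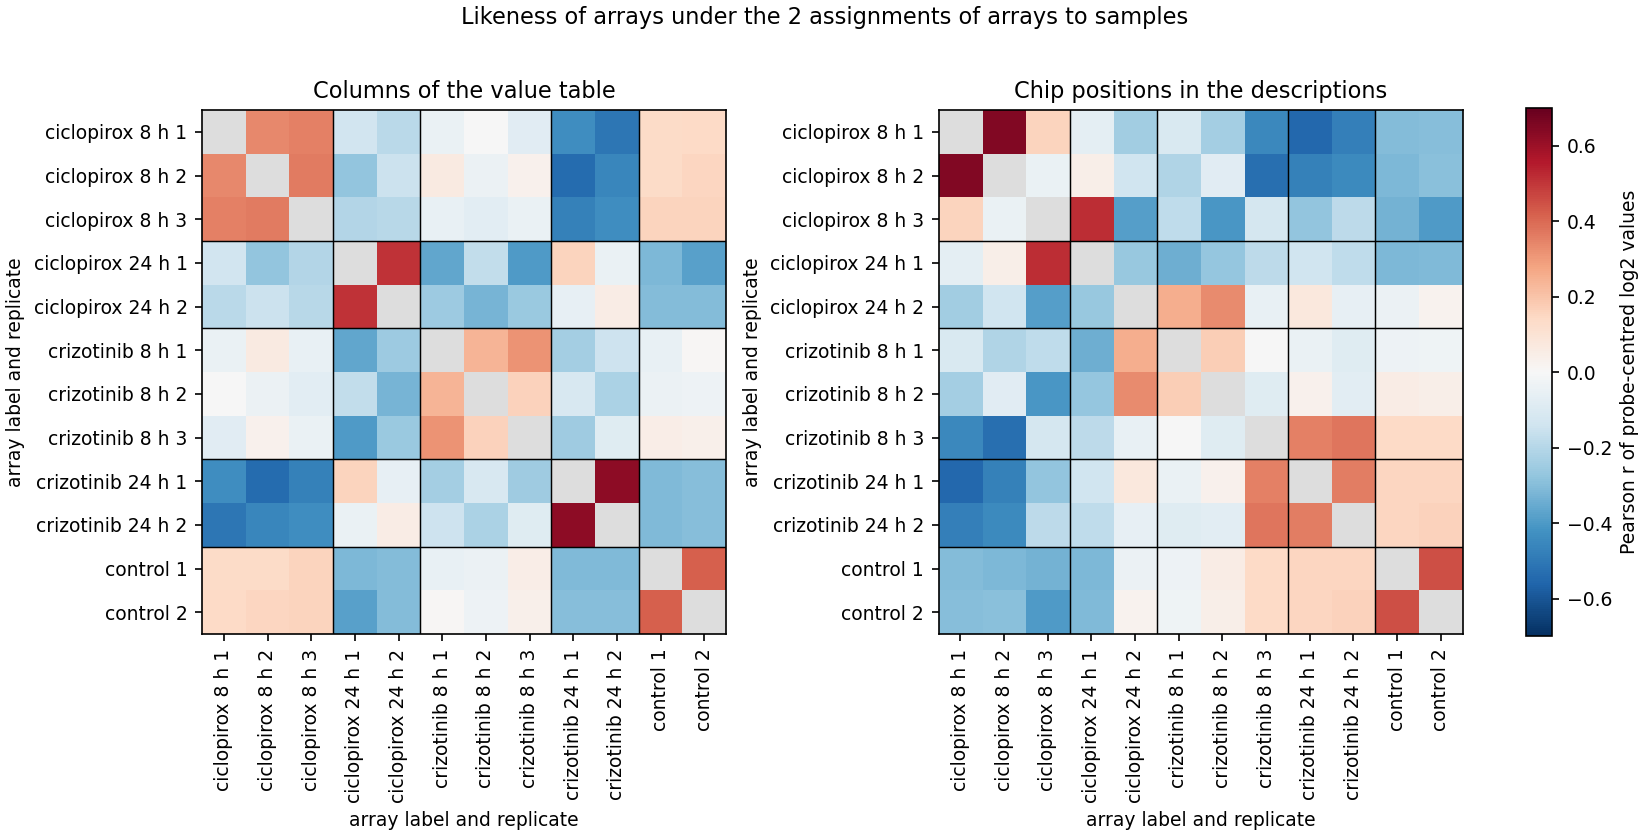
Pearson correlation of probe-centred log2 values between all pairs of the 12 arrays, with arrays assigned to labels by the columns of the value table (left) and by the chip positions in the sample descriptions (right). Lines separate the labels. On the left the squares along the diagonal are the warmest of each row (12 of 12 arrays are most like their own label), and on the right they are so for 5 of 12 arrays.

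Between 15561 and 17106 of 47230 probes were detected per array (detection p below 0.01), and mean signal lay between 346.2 and 397.6. The number of arrays limits the precision. After the filter, 16000 probes were tested, which stand for 10094 named genes by 1 probe each, the one with the highest mean. Of 16 melanocyte lineage markers 14 were measured: SOX10 and EDNRB were detected on all 10 arrays, whereas 9 markers, among them the pigment genes TYR, TYRP1, PMEL and MLANA, were detected on none. The lineage factor MITF and the melanosome gene RAB27A were detected on 9 arrays each. Of markers of other cell types, 6 of 6 measured keratinocyte genes, 5 of 8 fibroblast genes, 4 of 6 endothelial genes and 5 of 7 leukocyte genes were detected on none of the 10 arrays. The summed level of the fibroblast markers was 181 to 229 under ciclopirox and 213 to 235 under crizotinib, and that of the leukocyte markers 447 to 606 and 436 to 825, of which CD68 was detected on all 10 arrays.

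Over both times, 9 of 15 tested genes of cholesterol synthesis, 10 of 24 of the lysosome, 5 of 18 of redox defence and 10 of 32 of mitosis were called lower under ciclopirox than under crizotinib, and 0 in these lists higher. Called higher were 11 of 24 genes of the ATF4 stress programme, 5 of 24 HIF targets outside glycolysis, among them VEGFA, DDIT4 and P4HA1, and the vasoactive peptide gene EDN1. Of 16000 probes 1031 passed the threshold and are named called below (limma adjusted p below 0.05, 6.44% of those tested), 421 higher and 610 lower under ciclopirox. Counted by gene, 733 of 10094 passed (7.26%), 299 higher (2.96%) and 434 lower (4.3%), and 68 of them differed at least 2-fold (33 higher, 35 lower). The median log2 difference over all genes tested was -0.0171. Each of the 733 genes had the same sign at both times. For 679 of the 733 the ciclopirox arrays lay wholly on 1 side of the crizotinib arrays at both times, which held for 1281 of all 10094 genes (12.7%). The 733 were called on these same arrays, so their like signs and separation follow in part from that selection. The counts of list members below are to be read beside the shares of all genes called, which were 2.96% higher and 4.3% lower over both times, 1.11% and 2.11% at 8 h, and 6.72% and 7.56% at 24 h.

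Under the described positions 305 probes passed, 190 higher and 115 lower. None of the 733 genes (0) was called there in the same direction, and 565 had the opposite sign. With background correction and median centring of the matched arrays' signals in place of the value table's normalization, 961 probes passed. The share of higher calls was then 51.6%, against 40.8% in the values used here. The count was 588 or 521 without ciclopirox 24 h replicate 1 or 2, 654 or 672 without crizotinib 8 h replicate 1 or 3, and 561 or 521 without crizotinib 24 h replicate 1 or 2.

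**Figure D2:**
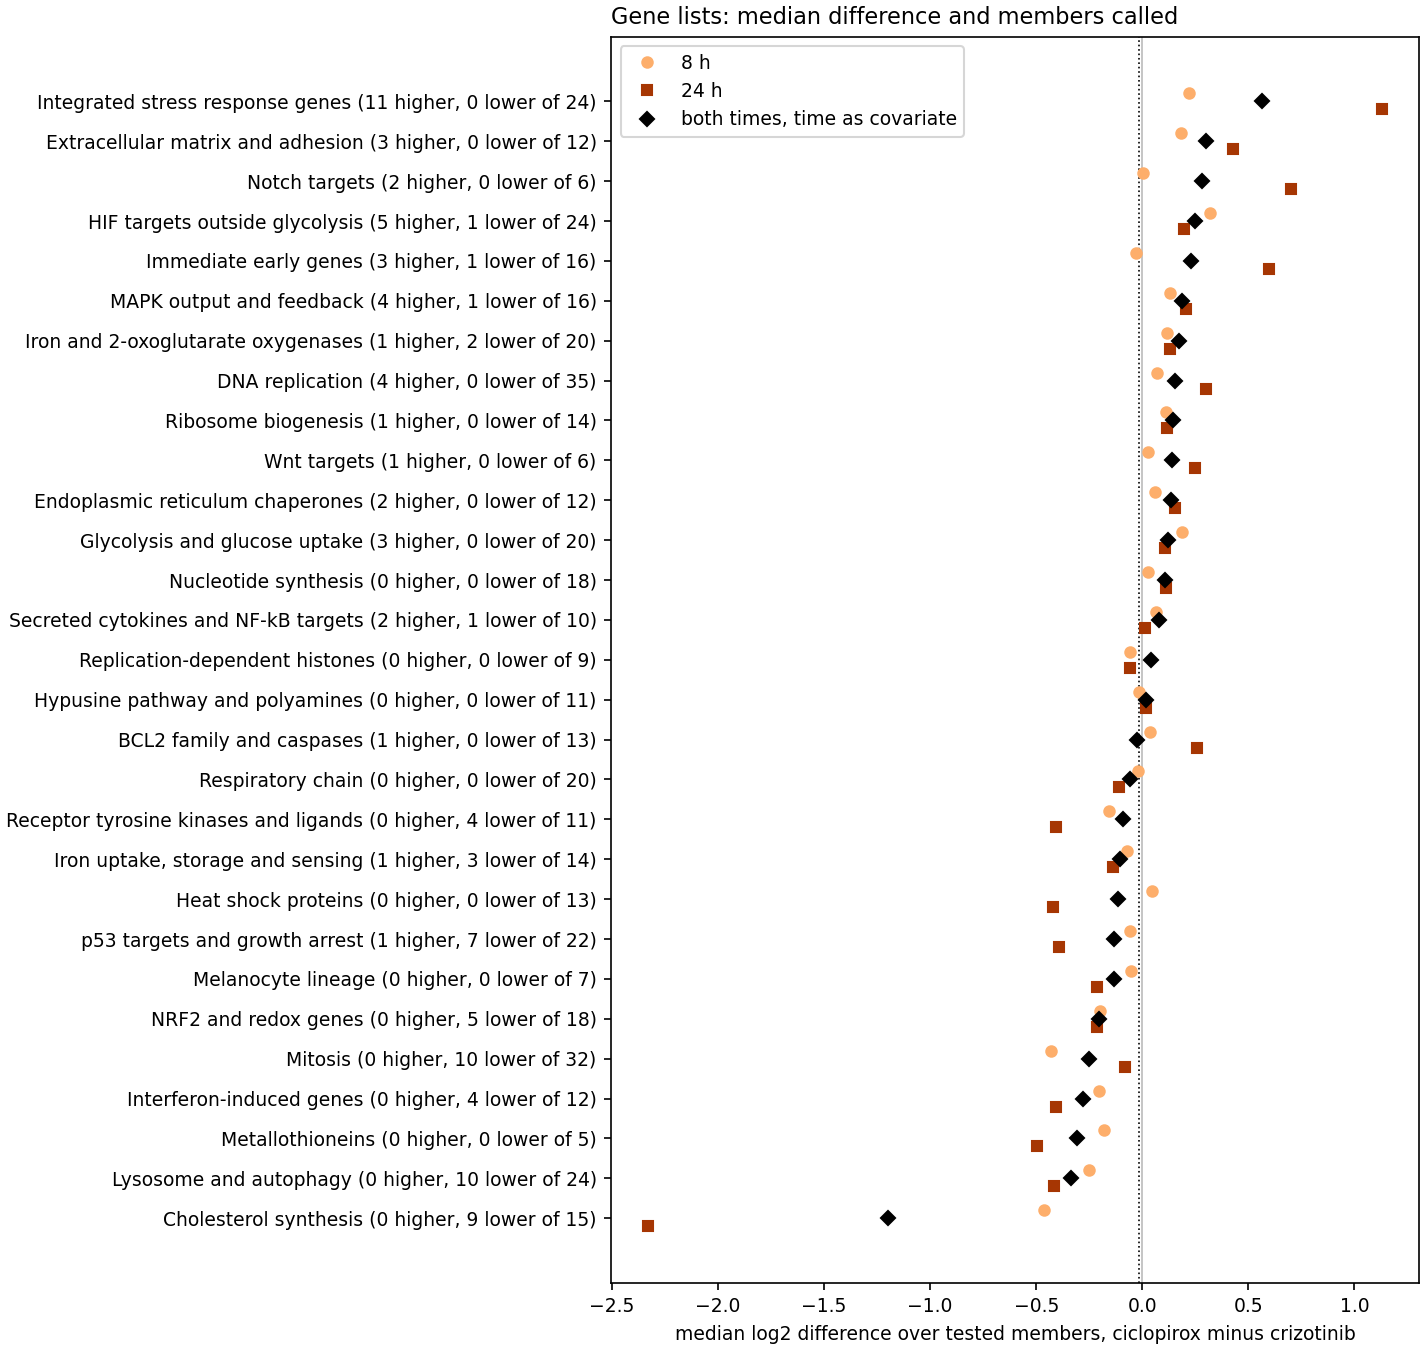
Median log2 difference, ciclopirox minus crizotinib, over the tested members of each gene list at 8 h (circles), at 24 h (squares) and over both times (diamonds). The dotted line is the median over all genes tested (-0.0171), and counts beside each name are members called higher and lower over both times. Cholesterol synthesis lies furthest to the left (-1.20 over both times) and the integrated stress response furthest to the right (0.564).

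The largest differences among the named genes were in cholesterol synthesis. Of 24 listed genes 15 were tested, of which 0 were called higher and 9 lower, beside 4.3% of all genes called lower, with a median log2 difference of -1.20 beside -0.0171 over all genes. HMGCS1 (probe ILMN_1797728), which makes HMG-CoA, stood at an intensity of 749, 716 and 707 at 8 h and 441 and 403 at 24 h under ciclopirox, against 2088, 2300.4 and 1911 at 8 h and 7800.4 and 7436 at 24 h under crizotinib. The 2 vehicle controls lay at 636 and 576, close to the ciclopirox arrays. The groups did not overlap at either time, and the gap widened with time (log2 difference -2.59, SE 0.40, limma adjusted p = 0.00516).

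INSIG1, which holds the SREBP activator in the endoplasmic reticulum and is itself an SREBP target, stood at 359, 323 and 312 at 8 h and 300.2 and 297 at 24 h under ciclopirox, against 1041, 1304 and 990.4 at 8 h and 2446 and 2050.1 at 24 h under crizotinib and 299 and 331 in the controls. The ciclopirox arrays stayed within the range of the controls or near it, while both crizotinib times lay above (log2 difference -2.21, SE 0.20, limma adjusted p = 0.000172). MSMO1, a sterol methyl oxidase, differed by -2.30 (-1.52 at 8 h, -3.46 at 24 h), and MVK, mevalonate kinase, by -1.53 (-1.20 at 8 h, -2.03 at 24 h). The sterol reductase DHCR7 differed by -1.65 (-0.68 at 8 h, -3.09 at 24 h) and SQLE, the squalene epoxidase, by -1.60 (-0.97 at 8 h, -2.55 at 24 h). LSS, SC5D and NSDHL, enzymes of the later steps, were also lower, by log2 differences of -1.21, -0.88 and -0.79. MVD and ACAT2 did not pass over both times, with log2 differences of -1.02 and -1.20, and were lower at 24 h, by -2.64 and -2.56. ABCA1, which exports cholesterol from cells and is not on the list, was higher by 1.17 (limma adjusted p = 0.00652). Its probe was detected on 5 of 5 ciclopirox and 3 of 5 crizotinib arrays.

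At 8 h 8 of the 15 were lower and at 24 h 13, with medians of -0.461 and -2.33. The mean centred level of the 15 genes was -0.463 to -0.388 on the ciclopirox arrays at 8 h and -0.606 and -0.650 at 24 h, against 0.147 to 0.238 and 1.49 and 1.29 on the crizotinib arrays, with the controls at -0.435 and -0.417. In the described positions the median over the list was 0.459, with 0 members called. Of the 15 genes 13 had a RefSeq promoter entry, and the 250 bases before their starts were searched. The sterol response letters TCACNCCAC (N any base, both strands) were found in 1, SREBF2, and in 0 of the 8 called genes with an entry. Of all 35116 promoters 0.883% held them. Only these exact letters within 250 bases were searched, so their absence does not show that a gene lacks a sterol response site.

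IL24, a secreted cytokine of the IL-10 family first found in melanoma cells, gave the smallest adjusted p of the comparison. It stood at 182, 136 and 170.4 at 8 h and 883 and 827 at 24 h under ciclopirox, against 646, 693 and 727 at 8 h and 4042 and 3744 at 24 h under crizotinib. It was higher at 24 h than at 8 h under either drug, and at each time lower under ciclopirox (log2 difference -2.13, SE 0.09, limma adjusted p = 1.86e-06). The controls lay at 234 and 194, so the 8 h ciclopirox arrays were the only drug arrays below both controls. With arrays placed as described, its sign turned, with a log2 difference of 2.27 (limma adjusted p = 0.0398).

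Other genes much lower under ciclopirox were LPIN1, a phosphatidate phosphatase of lipid synthesis (log2 difference -1.45, SE 0.10, limma adjusted p = 4.37e-05), and SLCO4A1-AS1, a transcript antisense to a transporter gene (log2 difference -1.88, SE 0.17, limma adjusted p = 0.000154). LPIN1 stood at 735, 609 and 612 at 8 h and 1136 and 1059 at 24 h under ciclopirox, against 1583, 2046 and 1619 at 8 h and 3228 and 3016 at 24 h under crizotinib and 695 and 719.7 in the controls. TRIML2 differed by -1.48 (-1.17 at 8 h, -1.95 at 24 h) and the neuropeptide FF receptor NPFFR2 by -1.33, and NPFFR2 was detected on 1 of 5 ciclopirox and 5 of 5 crizotinib arrays. FGFBP1, which releases fibroblast growth factors from the matrix, was detected on 0 of 5 ciclopirox and 5 of 5 crizotinib arrays. Its level under ciclopirox was lower by at least 2.53-fold (limma adjusted p = 0.00608). The bound sets the mean of the crizotinib arrays against the lowest detected signal, or the probe's own signal where higher, on each ciclopirox array. Where the other drug was itself undetected on some arrays, its own signal was used there, so such folds are not strict bounds.

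Of 24 tested genes of the lysosome and autophagy, 0 were called higher and 10 lower, beside 4.3% of all genes called lower (median -0.336). SQSTM1, the autophagy receptor p62, stood at 8559, 9433 and 8912 at 8 h and 11509 and 12422 at 24 h under ciclopirox, against 17127, 17707 and 16496 at 8 h and 23552 and 25565 at 24 h under crizotinib. The controls lay at 10190.0 and 9559, among the ciclopirox values (log2 difference -0.97, SE 0.07, limma adjusted p = 7.31e-05). GPNMB, a membrane glycoprotein of lysosomes and melanosomes, differed by -1.16 (-0.47 at 8 h, -2.21 at 24 h) and NEU1, a lysosomal sialidase, by -0.82 (-0.57 at 8 h, -1.21 at 24 h). The other members called were RRAGD (-0.57), a GTPase of lysosomal nutrient sensing, WIPI1 (-0.55), NPC1 (-0.54), which moves cholesterol out of lysosomes, the proteases CTSD (-0.52) and CTSL (-0.32), the proton pump subunit ATP6V1H (-0.48) and the channel MCOLN1 (-0.34). On the described arrays the list's median was 0.221.

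Of 18 tested genes of redox defence under NRF2, 0 were called higher, 5 lower (beside 4.3% of all genes) and 13 not called (median -0.204). SQSTM1 is shared with the lysosome list. ABCC2, an export pump for conjugates, stood at 55.3, 88.7 and 89.1 at 8 h and 104 and 102 at 24 h under ciclopirox, against 163, 123 and 147 at 8 h and 294 and 247 at 24 h under crizotinib and 123 and 121 in the controls (log2 difference -1.11, SE 0.16, limma adjusted p = 0.0035). HMOX1, which breaks down haem, differed by -0.86 (-0.71 at 8 h, -1.08 at 24 h), at 43.8, 47.4 and 60.8 and 51.9 and 43.0 under ciclopirox (8 h, then 24 h), against 107, 64.3 and 80.0 and 88.3 and 113 under crizotinib. GCLM, a subunit of the enzyme that starts glutathione synthesis, and NQO1, a quinone reductase, differed by -0.49 and -0.36.

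Among 14 tested genes of iron uptake, storage and sensing 1 was higher and 3 were lower, beside 2.96% and 4.3% of all genes (median -0.104). FTL, the ferritin light chain, stood at 12896, 12811 and 12719 at 8 h and 14476 and 14337 at 24 h under ciclopirox, against 15503, 16387 and 14628 at 8 h and 24335 and 22460.0 at 24 h under crizotinib, a small difference (log2 difference -0.44, SE 0.09, limma adjusted p = 0.022). The controls lay at 14550.0 and 14186, and only the 24 h crizotinib arrays stood well apart from the rest. HMOX1 and CYBRD1, a ferric reductase (-0.54), were the other lower members, and the metal importer SLC39A14 (0.41) was higher. For CYBRD1 a second, dimmer probe differed by -0.55 and did not pass (limma adjusted p = 0.0649). TFRC and FTH1 were not analysed here, since no probe carried their names in the annotation used.

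Mitotic genes were called lower under ciclopirox in part, with 0 of 32 higher and 10 lower over both times (median -0.250), 15 lower at 8 h (beside 2.11% of all genes), and 1 higher and 4 lower at 24 h. KIF20A, a kinesin of cytokinesis, stood at 1873, 1984 and 1835 at 8 h and 941 and 958 at 24 h under ciclopirox, against 3466, 3414 and 3391 at 8 h and 1549.5 and 1781 at 24 h under crizotinib. The controls, at 2476 and 2187, lay between the drugs at 8 h and above both at 24 h (log2 difference -0.83, SE 0.07, limma adjusted p = 0.000141). AURKA, the spindle kinase, differed by -0.66 (-0.86 at 8 h, -0.35 at 24 h) and HMMR, a spindle and hyaluronan-binding protein, by -0.63 (-0.64 at 8 h, -0.61 at 24 h). The mean centred level of the 32 genes was 0.00655 to 0.0867 on the ciclopirox arrays and 0.447 to 0.538 on the crizotinib arrays at 8 h, then -0.475 and -0.529 under ciclopirox and -0.419 and -0.416 under crizotinib at 24 h, with the controls at 0.192 and 0.0942. At 24 h both drugs thus lay below the controls and close together. The median under the described positions was -0.462, the same sign, with 0 members called.

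Of 35 tested genes of DNA replication 4 were higher under ciclopirox (beside 2.96% of all genes) and 0 lower (median 0.155), and 9 were higher at 24 h (beside 6.72%). MCM10, which loads the replication polymerases, stood at 566, 532 and 602 at 8 h and 400.1 and 352 at 24 h under ciclopirox, against 396, 484 and 462 at 8 h and 219 and 233 at 24 h under crizotinib, a call over both times (log2 difference 0.50, SE 0.10, limma adjusted p = 0.0187). Under both drugs the 24 h values lay below the controls (552 and 509), and under crizotinib further below. CDC6, GINS2 and E2F2 were the other members called, by 0.47, 0.27 and 0.33. CDC6 was detected on 5 of 5 ciclopirox and 3 of 5 crizotinib arrays, those at 8 h, so its difference involves background levels at 24 h. Under the described positions MCM10 turned to -0.72, and the list had 4 members called lower and 0 higher. In nucleotide synthesis limma called 0 of 18 genes over both times, and 3 had an unadjusted p below 0.05. RRM2, the ribonucleotide reductase subunit that carries the iron centre, had a log2 difference of 0.00 at 8 h and 1.40 at 24 h (limma adjusted p at 24 h = 0.000434).

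Growth arrest genes, many of them p53 targets, were split, with 1 of 22 higher and 7 lower, beside 2.96% and 4.3% of all genes (median -0.133). The lower ones were the inhibitors of cyclin-dependent kinases CDKN1B (-0.63), CDKN1C and CDKN2B, and also SESN1 (-0.50), ZMAT3 (-0.45), TP53INP1 (-0.54) and the DNA repair factor XPC (-0.30). CDKN1C was detected on 0 of 5 ciclopirox and 4 of 5 crizotinib arrays. It was lower by 1.34-fold with the ciclopirox arrays set as for FGFBP1 (limma adjusted p = 0.0153). CDKN2B was detected on 0 of 5 ciclopirox and 2 of 5 crizotinib arrays, those at 24 h. It was lower by 1.21-fold on the same reckoning (limma adjusted p = 0.0243). At 8 h CDKN2B was undetected under both drugs, so this fold is not a strict bound. GADD45B, a stress-induced growth arrest gene, was higher (log2 difference 0.73, SE 0.15, limma adjusted p = 0.02). CDKN1A, which encodes p21, was not detected at 8 h under either drug, nor in the controls. At 24 h it stood at 67.8 and 68.7 under ciclopirox and 137 and 139.6 under crizotinib, against background values of 21.4 and 24.9 in the controls. Its difference was -0.45 over both times (limma adjusted p = 0.171) and -1.02 at 24 h (limma adjusted p = 0.00744). The described positions gave this list a median of 0.794, with 7 members called higher.

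Interferon-induced genes were lower in 4 of 12, beside 4.3% of all genes, and higher in 0 (median -0.280). IFIT1, an antiviral RNA-binding protein, stood at 35.8, 37.3 and 33.9 at 8 h and 28.5 and 23.3 at 24 h under ciclopirox, against 76.2, 71.7 and 89.0 at 8 h and 79.7 and 69.7 at 24 h under crizotinib and 70.3 and 59.0 in the controls (log2 difference -1.30, SE 0.11, limma adjusted p = 0.000113). It was detected on 1 of 5 ciclopirox and 5 of 5 crizotinib arrays, and the controls lay with crizotinib. IFIT3, IFI6 and MX1 differed by -0.81, -0.34 and -0.32.

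Among 11 tested receptor tyrosine kinases and ligands 0 were higher and 4 lower, beside 4.3% of all genes called lower (median -0.0888). ERBB3, the neuregulin receptor, stood at 372, 389 and 431 at 8 h and 395 and 416 at 24 h under ciclopirox, against 595, 653 and 675 at 8 h and 927 and 886 at 24 h under crizotinib, a lower level at either time (log2 difference -0.88, SE 0.10, limma adjusted p = 0.000981). The controls, at 807 and 748, lay above both drugs at 8 h and between them at 24 h. Dimmer probes of ERBB3 differed by -0.28 and -0.22 and did not pass (limma adjusted p = 0.148 and 0.496). IGF1R (-0.49) and MST1 (-0.53), the ligand of the kinase MST1R, were lower too. PDGFRB was detected on 0 of 5 ciclopirox and 5 of 5 crizotinib arrays and was lower by at least 1.27-fold (limma adjusted p = 0.0394). MET, a target of crizotinib, stood at 233, 227 and 244 at 8 h and 294 and 325 at 24 h under ciclopirox, against 229, 227 and 219.9 at 8 h and 272 and 277 at 24 h under crizotinib. The groups overlapped at 8 h and lay apart by little at 24 h, and the log2 difference of 0.10 (SE 0.07, limma adjusted p = 0.441) did not pass. ALK was detected on 2 of 5 ciclopirox and 0 of 5 crizotinib arrays and did not pass (limma adjusted p = 0.201), and ROS1 and MST1R were removed by the filter.

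**Figure D3:**
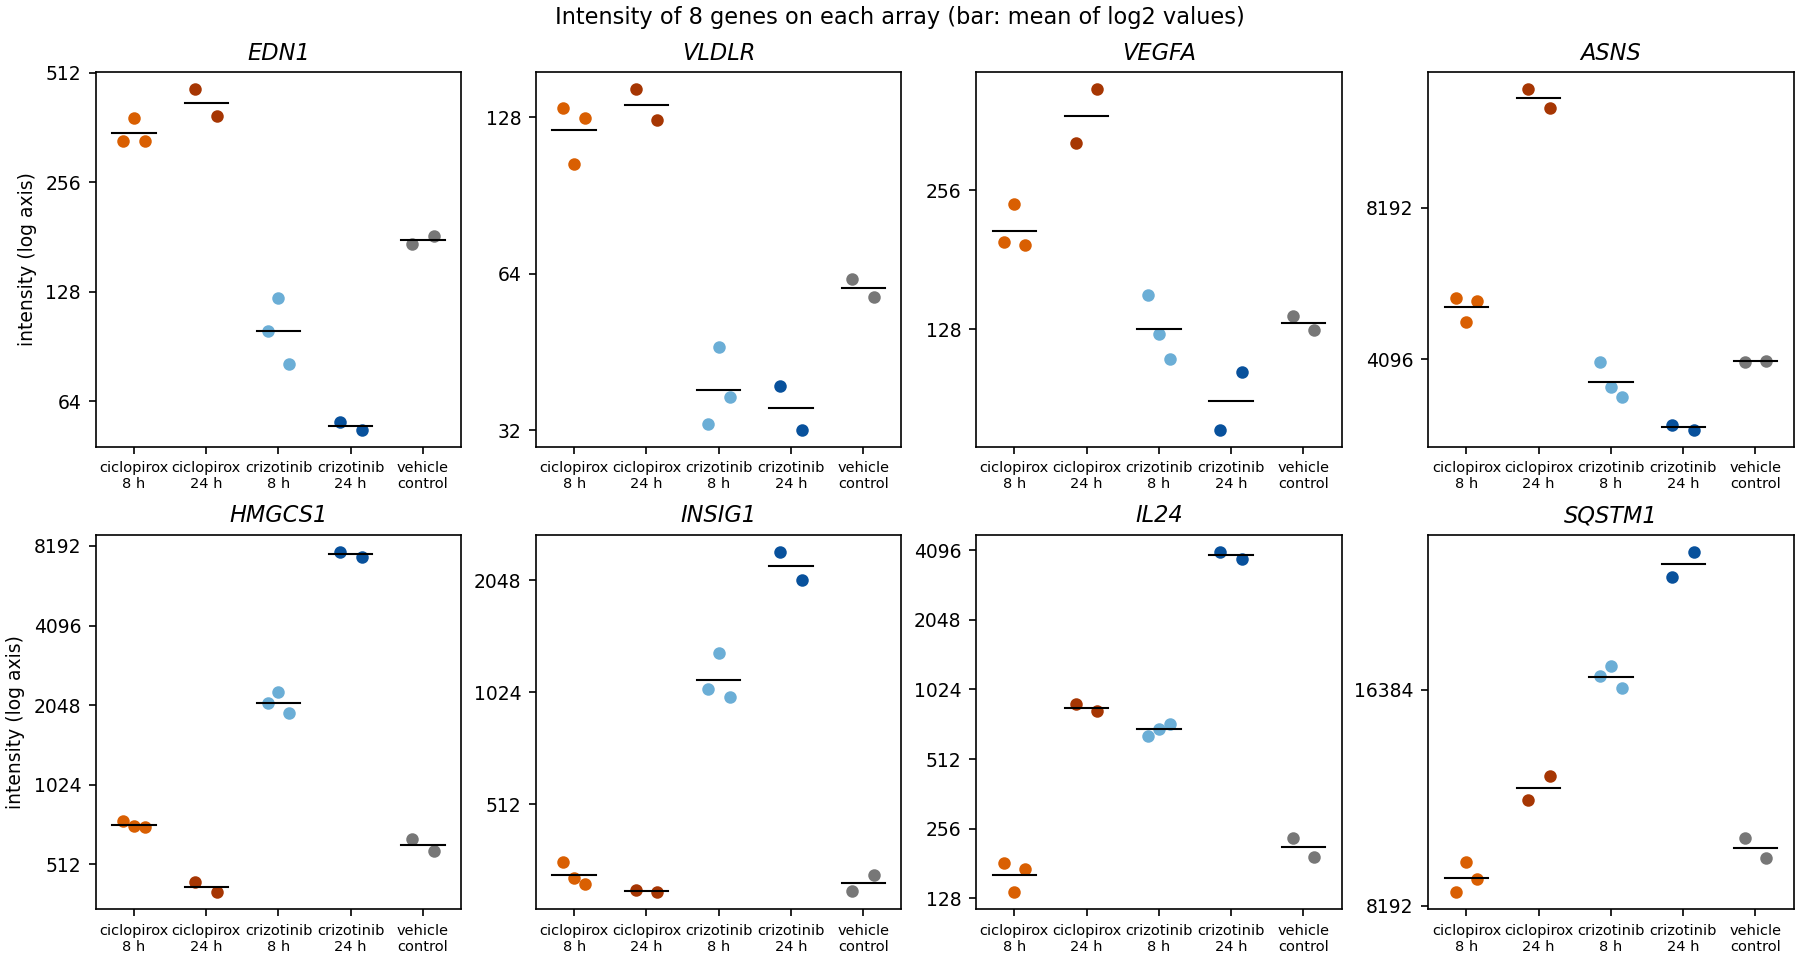
Intensity of 8 genes on each array (points, log axis), with a bar at the mean of the log2 values of each label. EDN1, VLDLR, VEGFA and ASNS are higher on every ciclopirox array than on every crizotinib array of the same time, and HMGCS1, INSIG1, IL24 and SQSTM1 are lower. The vehicle controls, which took no part in the fit, are on the right of each panel.

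Of the named genes higher under ciclopirox, EDN1 differed the most. It encodes endothelin 1, a vasoactive peptide and a ligand of the melanocyte receptor EDNRB. Its probe (ILMN_1682775) stood at 333, 384 and 333 at 8 h and 461 and 389 at 24 h under ciclopirox, against 99.9, 123 and 81.0 at 8 h and 56.3 and 53.5 at 24 h under crizotinib. The controls, at 174 and 183, lay between the drugs, so the groups fell on opposite sides of the vehicle level (log2 difference 2.26, SE 0.20, limma adjusted p = 0.000173). VLDLR, a lipoprotein receptor, stood at 133, 104 and 127 at 8 h and 145 and 126 at 24 h under ciclopirox, against 32.8, 46.2 and 37.0 at 8 h and 38.9 and 32.0 at 24 h under crizotinib and 62.6 and 57.6 in the controls (log2 difference 1.77, SE 0.12, limma adjusted p = 4.6e-05). Both signs turned under the described positions, to -0.55 and -0.38.

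The next largest were HECW2, a ubiquitin ligase (1.58 over both times, 1.24 at 8 h, 2.10 at 24 h), IL18R1, the interleukin 18 receptor (1.55 over both times, 1.08 at 8 h, 2.25 at 24 h), and PLXNA2, a semaphorin receptor (1.39 over both times, 1.11 at 8 h, 1.81 at 24 h). A second, dimmer PLXNA2 probe differed by only 0.23 and did not pass (limma adjusted p = 0.651). SERPINA3, a protease inhibitor, differed by 1.37 (0.80 at 8 h, 2.22 at 24 h). It stood at 892 and 893 under ciclopirox and 188 and 194 under crizotinib at 24 h, against 875 and 726 in the controls, so the 24 h crizotinib arrays were the ones that stood apart. ADAMTS6, a matrix protease, was close to even across the times (1.26 over both times, 1.18 at 8 h, 1.37 at 24 h), at 272, 274 and 261 and 258 and 273 under ciclopirox (8 h, then 24 h), against 121, 132 and 103 and 98.8 and 106 under crizotinib and 109.9 and 107 in the controls. The crizotinib arrays thus stayed near the controls. XYLT1, which starts proteoglycan chains, was unlike these in having its larger difference at 8 h (1.21 over both times, 1.63 at 8 h, 0.59 at 24 h). XYLT1 was detected on 5 of 5 ciclopirox and 3 of 5 crizotinib arrays. IL1RL1, the interleukin 33 receptor, was detected on 2 of 5 ciclopirox arrays, those at 24 h, and 0 of 5 crizotinib arrays. It was 1.31-fold higher with the crizotinib arrays set at the lowest detected signal, as for FGFBP1 (limma adjusted p = 0.0375). At 8 h IL1RL1 was undetected under both drugs, so this fold is not a strict bound.

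Targets of HIF outside glycolysis were higher in 5 of 24, beside 2.96% of all genes, and lower in 1 (median 0.250). VEGFA, the vascular growth factor, stood at 197, 239 and 195 at 8 h and 323 and 423 at 24 h under ciclopirox, against 152, 125 and 110.3 at 8 h and 77.7 and 104 at 24 h under crizotinib and 137 and 128 in the controls. Ciclopirox arrays lay above the controls at both times and crizotinib arrays below them at 24 h (log2 difference 1.24, SE 0.23, limma adjusted p = 0.013). DDIT4, an inhibitor of mTORC1, stood at 3045, 2858 and 3002 at 8 h and 4360.2 and 4209.5 at 24 h under ciclopirox, against 1596, 1320.1 and 1564 at 8 h and 2329 and 2059 at 24 h under crizotinib, with the controls at 1579.7 and 1536 (log2 difference 0.98, SE 0.08, limma adjusted p = 0.000106). The 8 h crizotinib arrays lay around the controls. The other higher members were STC2, a secreted glycoprotein (1.01 over both times, 0.43 at 8 h, 1.89 at 24 h), BNIP3, a mitophagy receptor (0.86 over both times, 1.08 at 8 h, 0.52 at 24 h), and P4HA1, a collagen prolyl hydroxylase (0.81 over both times, 0.83 at 8 h, 0.79 at 24 h). CITED2, which competes with HIF for its coactivator, was lower (-0.61).

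More HIF targets passed at a single time. At 8 h 7 were higher (beside 1.11% of all genes) and 1 lower, and at 24 h 6 were higher (beside 6.72%) and 1 lower. KDM3A, a histone demethylase, was higher at 8 h (1.01) and stood at 0.01 at 24 h, while ADM, the vasodilator adrenomedullin, was higher at 24 h (0.83) and stood at 0.21 at 8 h. For ANGPTL4 the probes disagreed: the brighter one differed by 0.19 (limma adjusted p = 0.562), and a second, chosen after its values were seen, was detected on all 5 ciclopirox and 0 of 5 crizotinib arrays (limma adjusted p = 1.95e-05). The described positions gave a median of -0.0823, with 0 members called.

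Glucose genes were higher in 3 of 20, beside 2.96% of all genes, and lower in 0 (median 0.123). HK2, hexokinase 2, stood at 1186, 991 and 1117 at 8 h and 772 and 653 at 24 h under ciclopirox, against 469, 617 and 479 at 8 h and 389 and 370.0 at 24 h under crizotinib and 587 and 622 in the controls (log2 difference 1.01, SE 0.10, limma adjusted p = 0.000487). The glucose transporter SLC2A1 and the glycolytic regulator PFKFB3 differed by 0.49 and 0.49, and both had the larger difference at 8 h (0.61 and 0.62) than at 24 h (0.32 and 0.31). A second, dimmer PFKFB3 probe differed by 0.13 and did not pass (limma adjusted p = 0.664). Under the described positions these 3 genes turned to -0.68, -0.42 and -0.31.

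HIF binds DNA at a short core, ACGTG, and the letters of this core were searched on both strands in the 250 bases before each start. They were present in 14 of the 19 tested HIF targets that had a promoter entry (73.7%) and in 9 of 20 tested glucose genes (45%), beside 18.5% of all 35116 promoters. The list was drawn up from known HIF targets, so this share is a description of the list and not of the drugs. Of the called higher members with an entry 3 of 4 held the core, and the called lower member CITED2 held it too. These 3 promoters and that of EDN1, the named gene with the largest difference to the ciclopirox side, are shown for the place of the core, whose letters are in capitals (CACGT is the core on the opposite strand, and CACGTG holds it on both). The sequences are RefSeq's on GRCh38.p14, read 5′ to 3′ along the gene: BNIP3 from chr10:131981924-131982173 (minus strand), DDIT4 from chr10:72273674-72273923 (plus strand), P4HA1 from chr10:73096867-73097116 (minus strand) and EDN1 from chr6:12287769-12288018 (plus strand).
BNIP3: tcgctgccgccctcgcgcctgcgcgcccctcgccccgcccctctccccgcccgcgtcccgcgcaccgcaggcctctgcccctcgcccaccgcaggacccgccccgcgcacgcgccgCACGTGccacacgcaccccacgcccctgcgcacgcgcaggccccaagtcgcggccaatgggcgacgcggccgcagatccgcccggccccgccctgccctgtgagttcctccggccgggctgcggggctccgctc
DDIT4: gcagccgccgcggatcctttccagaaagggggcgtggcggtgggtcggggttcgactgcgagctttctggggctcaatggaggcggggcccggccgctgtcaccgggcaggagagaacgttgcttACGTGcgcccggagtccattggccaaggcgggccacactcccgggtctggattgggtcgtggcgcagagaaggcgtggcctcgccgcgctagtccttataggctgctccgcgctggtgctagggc
P4HA1: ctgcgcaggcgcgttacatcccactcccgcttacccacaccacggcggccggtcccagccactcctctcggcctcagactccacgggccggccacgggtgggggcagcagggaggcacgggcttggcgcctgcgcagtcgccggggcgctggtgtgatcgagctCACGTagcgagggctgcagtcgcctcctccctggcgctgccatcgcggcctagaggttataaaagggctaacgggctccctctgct
EDN1: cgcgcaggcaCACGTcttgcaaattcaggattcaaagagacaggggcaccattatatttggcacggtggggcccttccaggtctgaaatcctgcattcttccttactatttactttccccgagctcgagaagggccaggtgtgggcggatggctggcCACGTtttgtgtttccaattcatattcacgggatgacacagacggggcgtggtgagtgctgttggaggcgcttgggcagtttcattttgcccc
BNIP3 held the core at 1 palindromic place, DDIT4 and P4HA1 at 1 place each and EDN1 at 2. P4HA1 had nearly equal log2 differences at 8 and 24 h (0.83 and 0.79), whereas that of EDN1 was larger at 24 h (2.95) than at 8 h (1.80). A match of letters shows no binding.

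The integrated stress response was the list with the most members called higher. Of 24 tested genes 11 were higher and 0 lower over both times (median 0.564), 4 were higher and 1 lower at 8 h, and 24 of 24 were higher at 24 h (median 1.13), when 6.72% of all genes were. ASNS, asparagine synthetase, stood at 5418, 4852 and 5356 at 8 h and 14102 and 12972 at 24 h under ciclopirox, against 4050.2, 3607 and 3441 at 8 h and 3030.2 and 2966 at 24 h under crizotinib and 4044 and 4062 in the controls (log2 difference 1.17, SE 0.26, limma adjusted p = 0.0255). The 24 h ciclopirox arrays stood above all others, and the 24 h crizotinib arrays lay below the controls. PSAT1, an enzyme of serine synthesis, stood at 4749.8, 3617 and 4372 at 8 h and 8732 and 7836 at 24 h under ciclopirox, against 2868, 3454 and 2458 at 8 h and 2134 and 2076 at 24 h under crizotinib, without overlap at either time (log2 difference 1.11, SE 0.24, limma adjusted p = 0.0222).

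Other members called over both times were MTHFD2 (1.02) of mitochondrial folate metabolism, the transcription factors CEBPG (0.84), ATF3 (0.77) and ATF4 (0.67) and the tRNA synthetases GARS1 (0.58) and SARS1 (0.51). CHAC1, which degrades glutathione, and ALDH1L2, a mitochondrial folate enzyme, were detected on 2 and 3 of 5 ciclopirox arrays and on 0 of 5 crizotinib arrays. With the crizotinib arrays set as for FGFBP1 they were higher by 1.24-fold and 1.45-fold. CHAC1 was undetected at 8 h under both drugs and ALDH1L2 on some 8 h ciclopirox arrays, so these folds are not strict bounds. With these 2 genes at those folds the list's median over both times was 0.523. VLDLR, described above, is on this list as well. DDIT3, which encodes CHOP, stood at 227, 253 and 233 at 8 h and 1287 and 1164 at 24 h under ciclopirox, against 299, 281 and 287 at 8 h and 529.9 and 502 at 24 h under crizotinib and 238 and 227 in the controls. It was raised over the controls on the 24 h arrays of both drugs, further under ciclopirox, and differed by -0.28 at 8 h and 1.25 at 24 h. GDF15, a stress-induced cytokine, was lower at 8 h (-0.75) and higher at 24 h (0.77). By the described positions the list's median was 0.35, the same sign. The 1 member called there was GDF15 (3.04), whose difference over both times was -0.14 in the values used here and did not pass.

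ATF4 with a CEBP partner binds a composite site of which TGATGNAA is a part, and these letters stood in the 250 bases before 4 of the 20 tested members with a promoter entry (20%) and in 3 of 10 called higher, ATF3, ASNS and CHAC1, beside 3.14% of all promoters. The list was drawn up from known genes of the ATF4 programme, so these shares describe the list and not the drugs. A match of letters shows no binding here either. The ASNS promoter is shown as the member with the largest difference that held these letters. It is from chr7:97872409-97872658 (minus strand, GRCh38.p14, RefSeq), with the letters in capitals.
ASNS: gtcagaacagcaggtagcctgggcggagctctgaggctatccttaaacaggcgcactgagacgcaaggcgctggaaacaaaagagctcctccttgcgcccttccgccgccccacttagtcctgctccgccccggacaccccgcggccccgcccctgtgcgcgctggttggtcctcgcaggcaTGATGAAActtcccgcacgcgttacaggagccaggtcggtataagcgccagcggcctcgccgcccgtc
The match in ASNS lies on the strand printed.

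**Figure D4:**
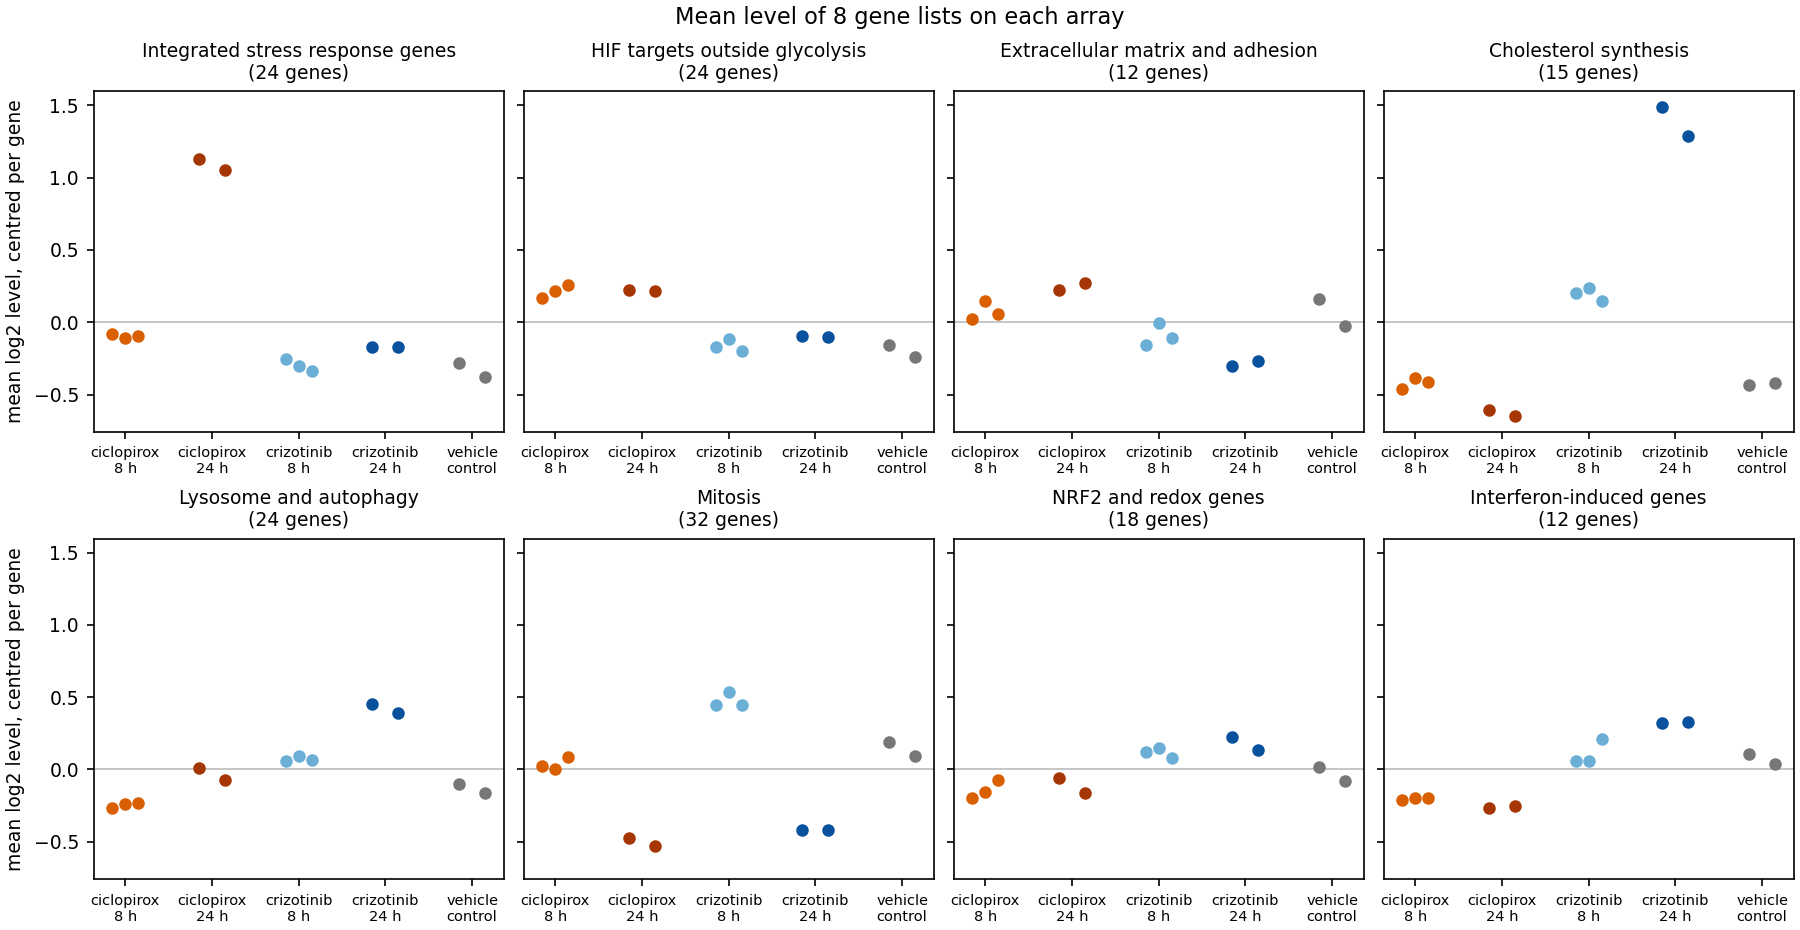
Mean log2 level of 8 gene lists on each array, centred per gene on the 12 arrays (number of tested genes in brackets). The integrated stress response is highest on the 2 ciclopirox 24 h arrays (1.13 and 1.05), and cholesterol synthesis is highest on the 2 crizotinib 24 h arrays (1.49 and 1.29).

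Chaperones of the endoplasmic reticulum were called in 2 of 12, both higher, beside 2.96% of all genes (median 0.136). XBP1, a transcription factor of the unfolded protein response, stood at 2425, 1997 and 2181 at 8 h and 4556 and 3836 at 24 h under ciclopirox, against 1389.5, 1326 and 1441 at 8 h and 1231 and 1109.6 at 24 h under crizotinib and 1557 and 1571 in the controls (log2 difference 1.13, SE 0.19, limma adjusted p = 0.00841). HSPA5, the chaperone BiP, differed by 0.53 (0.29 at 8 h, 0.90 at 24 h), and at 24 h it stood at 829 and 794 under ciclopirox and 396 and 480.3 under crizotinib, both below the controls at 963 and 917.

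Immediate early genes were higher in 3 of 16 and lower in 1, beside 2.96% and 4.3% of all genes (median 0.229). At 24 h 10 were higher and 2 lower, beside 6.72% and 7.56%. JUN, a subunit of AP-1, stood at 797, 1092 and 845 at 8 h and 677 and 909 at 24 h under ciclopirox, against 462, 385 and 471 at 8 h and 276 and 353 at 24 h under crizotinib and 641 and 637 in the controls (log2 difference 1.16, SE 0.13, limma adjusted p = 0.000888). CCN2, the matrix growth factor CTGF, stood at 3665, 5165 and 4378 at 8 h and 4029 and 3564 at 24 h under ciclopirox, against 2301, 2762 and 2171 at 8 h and 1452 and 1140.2 at 24 h under crizotinib, again without overlap (log2 difference 1.14, SE 0.16, limma adjusted p = 0.00272). For both genes the crizotinib arrays lay below the controls, which were at 3388 and 2875 for CCN2. KLF10 was also higher (0.54), and KLF6, a zinc finger factor, was lower by nearly the same amount at both times (-0.88 over both times, -0.89 at 8 h, -0.86 at 24 h).

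Of 16 genes of MAPK output and feedback 4 were higher and 1 lower, beside 2.96% and 4.3% of all genes (median 0.185). DUSP6, the phosphatase that limits ERK, differed by 0.34 (0.26 at 8 h, 0.45 at 24 h), at 750.4, 622 and 663 and 859 and 895 under ciclopirox (8 h, then 24 h) and 579, 555 and 559 and 651 and 636 under crizotinib, against 782 and 703 in the controls. A second, dimmer DUSP6 probe differed by 0.28 and did not pass (limma adjusted p = 0.383). EPHA2, SPRY4 and CCND1, the cyclin D1 gene, were higher by 0.50, 0.28 and 0.33, and DUSP4 was lower (-0.61). These differences were small beside those of the sterol and stress genes.

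JAG1, a Notch ligand, and HES1, a Notch target, were the 2 higher of 6 tested Notch genes, beside 2.96% of all genes (0 lower, median 0.283). JAG1 stood at 309.6, 260.0 and 320.0 at 8 h and 489.9 and 476 at 24 h under ciclopirox, against 128, 150.3 and 153 at 8 h and 140.5 and 167 at 24 h under crizotinib and 343 and 328 in the controls (log2 difference 1.29, SE 0.13, limma adjusted p = 0.000409). The crizotinib arrays lay below the controls at both times. HES1 differed by 0.63 (0.48 at 8 h, 0.85 at 24 h). Matrix and adhesion genes were higher in 3 of 12 and lower in 0 (median 0.300): the basement membrane collagens COL4A1 (0.50) and COL4A2 (0.45) and the matrix glycoprotein THBS1 (0.61). At 24 h 6 were higher, among them TNC (1.60) and COL5A1 (1.22).

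Of 10 tested cytokine and NF-kB genes 2 were higher and 1, IL24, lower, beside 2.96% and 4.3% of all genes (median 0.0802). CXCL8, the neutrophil chemokine, stood at 6101, 4392 and 5286 at 8 h and 4198 and 3465 at 24 h under ciclopirox, against 1809, 2333 and 2359.6 at 8 h and 3882 and 2862 at 24 h under crizotinib and 6010.4 and 5874 in the controls. Its arrays separated at 8 h and overlapped at 24 h (0.84 over both times, 1.28 at 8 h, 0.19 at 24 h). PTGS2, cyclooxygenase 2, was higher (log2 difference 0.82, SE 0.16, limma adjusted p = 0.0146), and was detected on 5 of 5 ciclopirox and 2 of 5 crizotinib arrays. Among 13 tested BCL2 family and caspase genes PMAIP1, which encodes the death-promoting protein NOXA, was the 1 called (log2 difference 1.01, SE 0.15, limma adjusted p = 0.00495), and it stood at 136, 111 and 183 at 8 h and 183 and 224 at 24 h under ciclopirox, against 74.9, 89.9 and 75.2 at 8 h and 74.9 and 91.0 at 24 h under crizotinib.

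Some lists held few or no calls. With limma, 0 members were called over both times in 8 lists, of which nucleotide synthesis is described above. In the other 7, an unadjusted p below 0.05 was found for 1 of 5 metallothioneins, 2 of 9 histones, 3 of 13 heat shock proteins, 2 of 20 respiratory chain genes, 1 of 11 hypusine and polyamine genes, 1 of 2 leukocyte markers and 0 of 7 melanocyte lineage genes. Histones, metallothioneins and the HSP70 genes have near-identical copies, which a probe may not tell apart. The largest differences in them, leukocyte markers aside, were MT1F (-0.61), H2BC12 (-0.65), HSPA1B (-0.64), CYCS (0.33), SAT1 (-0.30) and RAB27A (-0.26). A second, dimmer probe of the histone gene H2BC5, which does not stand for the gene here, did pass (-0.88, limma adjusted p = 0.00868). MITF, the melanocyte factor, had a difference of -0.06 (limma adjusted p = 0.825). Iron and 2-oxoglutarate oxygenases had 1 of 20 higher, P4HA1, and 2 lower, the histone demethylases KDM5B (-0.34) and KDM3B (-0.31). Ribosome biogenesis had 1 of 14 higher, RRP9 (0.43), and Wnt targets 1 of 6, CCND1. The fibroblast markers LUM (-0.74) and PDGFRB were the 2 tested of 8 and both were lower, and their part in other differences was not tested.

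At 8 h alone 447 probes passed (163 higher, 284 lower, 2.79%), or 325 genes (3.22%), 112 higher (1.11%) and 213 lower (2.11%). At 24 h alone 2005 probes passed (926 higher, 1079 lower, 12.5%), or 1441 genes (14.3%), 678 higher (6.72%) and 763 lower (7.56%). The median absolute log2 difference over all genes was 0.132 at 8 h and 0.213 at 24 h. Of the 733 genes called over both times, 232 were also called at 8 h, 474 at 24 h, 137 at both and 164 at neither, all in the same direction. With the described positions 61 probes passed at 8 h and, with limma, 0 at 24 h (smallest adjusted p 0.5, and 1381 with an unadjusted p below 0.05). With background correction and median centring the share of higher calls at 8 h was 48.1%, against 36.5% here.

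The 8 h count was 243, 229 or 207 without ciclopirox 8 h replicate 1, 2 or 3, and 195, 260 or 198 without crizotinib 8 h replicate 1, 2 or 3. At 24 h it was 1054 or 1175 without ciclopirox 24 h replicate 1 or 2, and 1044 or 1251 without crizotinib 24 h replicate 1 or 2, where the spread of a single remaining array is taken from the other groups.

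The test of whether the drug difference itself differed between 24 h and 8 h called 650 probes (344 positive, 306 negative, 4.06%), or 480 genes (4.76%), 268 positive (2.66%) and 212 negative (2.1%). Stress response genes were positive in 20 of 24, so their difference was more to the ciclopirox side at 24 h, and cholesterol genes were negative in 11 of 15. HMGCS1, PTGES, which makes prostaglandin E2, and DHCR7 had the smallest p among negative differences, and LMO4, a transcriptional cofactor, DDIT3 and ASNS among positive ones. PTGES stood at 225, 231 and 235 at 8 h and 145 and 166 at 24 h under ciclopirox, against 208, 239.5 and 217 at 8 h and 659 and 704 at 24 h under crizotinib and 217 and 238 in the controls, so the groups overlapped at 8 h and lay far apart at 24 h. LMO4 stood at 392, 384 and 392 at 8 h and 739 and 685 at 24 h under ciclopirox, against 479.8, 485 and 473 at 8 h and 297 and 320.4 at 24 h under crizotinib, lower under ciclopirox on each 8 h array and higher on each 24 h array.

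Heat shock genes were negative in 4 of 13. HSPA1B, an inducible HSP70, stood at 2434, 2396 and 2043 at 8 h and 656 and 672 at 24 h under ciclopirox, against 2220.0, 2176 and 2253 at 8 h and 2151 and 2044 at 24 h under crizotinib and 3440.5 and 3109.6 in the controls. The 2 ciclopirox arrays at 24 h stood apart from all others. Mitotic genes were positive in 6 of 32 and immediate early genes in 4 of 16. Some list members, singled out after their values were seen, passed at both times with opposite signs: BHLHE40 (0.84 at 8 h, -0.79 at 24 h), a HIF target and clock repressor, the glycolytic regulator PFKFB4 (0.79 and -1.02), the feedback gene SPRY1 (0.88 and -0.43) and the kinesin KIF2C (-0.64 and 0.48). Of the 733 genes called over both times 94 were also called here. By the described positions limma called 0 probes (smallest adjusted p 0.888, and 1000 with an unadjusted p below 0.05). The count here was 399, 433 or 372 without ciclopirox 8 h replicate 1, 2 or 3, 315 or 327 without ciclopirox 24 h replicate 1 or 2, 392, 425 or 423 without crizotinib 8 h replicate 1, 2 or 3, and 251 or 394 without crizotinib 24 h replicate 1 or 2.

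**Figure D5:**
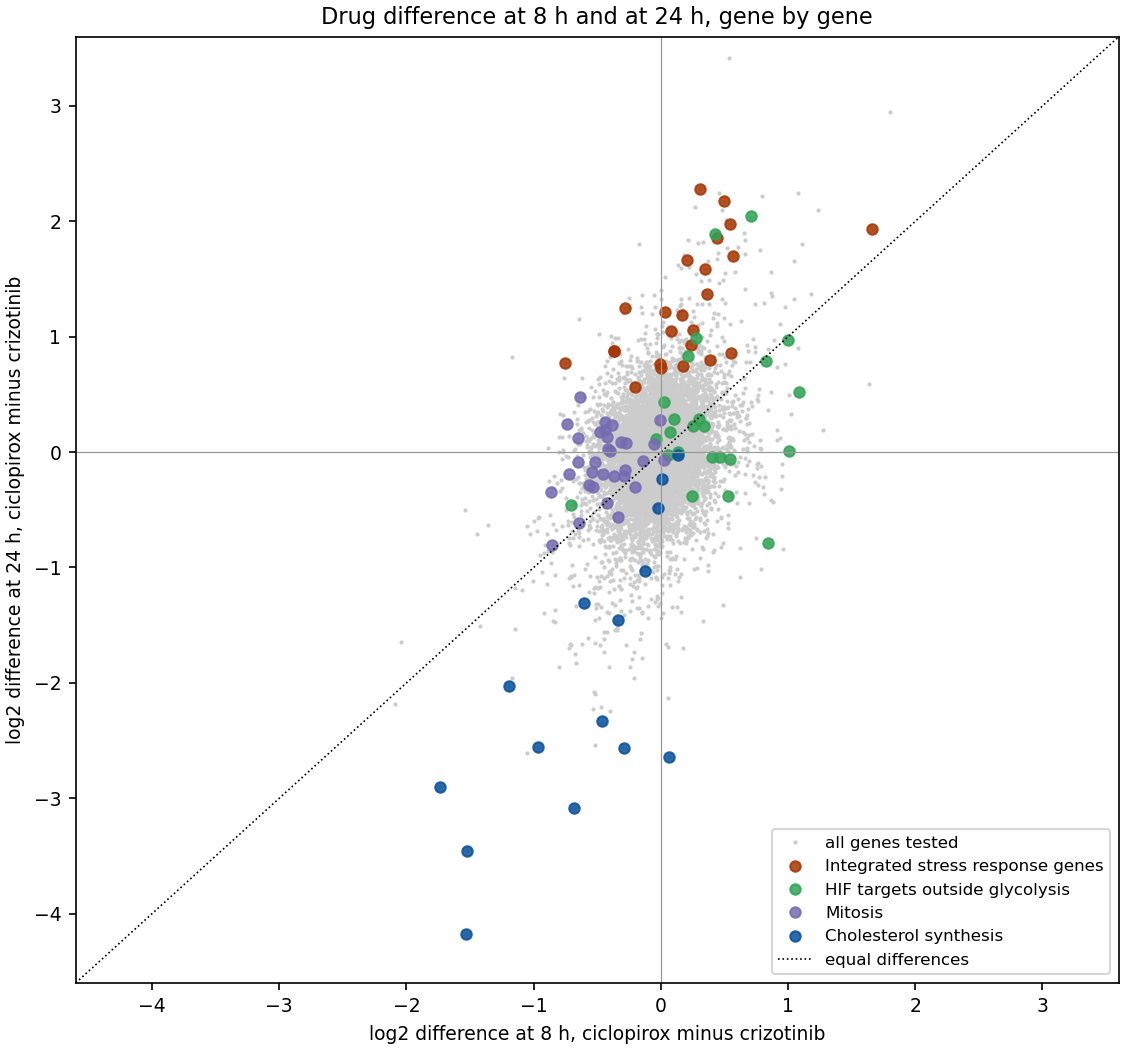
Log2 difference at 8 h (horizontal) and at 24 h (vertical), ciclopirox minus crizotinib, for each gene tested (grey) and for the members of 4 lists (colours). The dotted line marks equal differences. Stress response genes lie above 0 at 24 h (24 of 24 called higher), cholesterol genes reach -4.17 at 24 h, and mitotic genes lie mostly left of 0 (15 of 32 called lower at 8 h).

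Around the threshold, the 3 genes just inside it were URB2 (log2 difference 0.32, limma adjusted p = 0.0498), DUSP1 (0.29, 0.0498) and TRIM51 (-0.83, 0.0499). Just outside were CCNE1 (0.32, 0.0503), AHNAK2 (-0.54, 0.0503) and FAM114A1 (-0.57, 0.0508), so genes on either side of it had differences of like size.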

How the data were processed

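RNA of WM35 cells (300 ng a sample) was hybridised to a 12-array Illumina BeadChip, per the labels' protocols. Per the file headers, the deposited signal table gives average signal intensity (arbitrary units, unscaled between arrays, 27.1% to 30.2% of values below 0) and, from the authors' scanner software, detection p-values for 47230 probes. The submitters' processing notes name GenomeStudio, with no version in the sources used here. The deposited value table holds normalized intensity on a linear scale for 38223 probes (column medians 25.03 to 26.42). How the authors corrected and normalized it is not stated.

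The main values were log2 of the deposited value table, with detection calls from the array each column matched. Probes with detection p below 0.01 on at least 2 of the 10 drug arrays were kept (18004), of which 2004 are not in the value table, leaving 16000. The kept probes are the same under both assignments of arrays.

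This departs from the planned analysis, neqc values of the signal table by the described positions, which is given as an alternative. The change was made after the files were seen, after the check of likeness within labels, and after known genes (VEGFA, BNIP3, GDF15, HMGCS1 and INSIG1) had been looked at under both assignments, so their levels are no independent evidence for it.

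limma 3.58.1 in R 4.3.3 fitted drug and time (7 residual degrees of freedom, median SE 0.113), and 4 group means for the 8 h, 24 h and interaction contrasts (median SE 0.129, 0.158 and 0.204). P-values were moderated (eBayes) and adjusted by Benjamini-Hochberg across 16000 probes. Positive is higher under ciclopirox. The fits were tested on simulated data. Probes took the platform annotation's symbol (27004 with 1 symbol, 4 with several, 11215 without), updated through Entrez IDs. Of the genes, 2360 had several probes, with calls in opposite directions in 0.

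Named genes are the 12 largest called differences in each direction without overlap of arrays at either time, up to 3 called members of each list (the 2 largest where none was called), the drugs' known targets and iron genes, the 3 smallest interaction p-values in each direction, and 3 genes on either side of the threshold. Other members named were picked after their values were seen. The comparison, members and lists were chosen with earlier results of these data known, and lists were not tested as sets. Alternatives covered normalization, offset, filter, array weights, the time term, a replicate block and each array left out.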

Additional observations from a re-analysis of the deposited data

Results flagged for a closer look

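The drug difference was tested for a change between the times, as the difference at 24 h minus that at 8 h, and 650 of 16000 probes passed (limma adjusted p below 0.05). The named genes that passed are given here by that change on the log2 scale. Among genes called over both times, it was positive for EDN1 (1.14), IL18R1 (1.17), SERPINA3 (1.43), VEGFA (1.33), IL1RL1 (1.79), STC2 (1.47), ASNS (1.68), PSAT1 (1.43), XBP1 (1.17) and PTGS2 (0.85). It was negative for HMGCS1 (-2.64), MSMO1 (-1.94), INSIG1 (-1.17), FGFBP1 (-1.56), DHCR7 (-2.40), SQLE (-1.58), MVK (-0.83), NPFFR2 (-2.02), GPNMB (-1.74), NEU1 (-0.65), LUM (-1.06) and TRIM51 (-1.40).

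Among named genes that were not called over both times, the change was positive for RRM2 (1.40), LMO4 (1.51) and DDIT3 (1.53) and negative for H2BC12 (-1.25), HSPA1B (-1.70), HSPA1A (-1.87), CD68 (-0.74), PTGES (-2.19) and AHNAK2 (-0.77). IL1RL1, FGFBP1, NPFFR2, PTGS2 and LUM were not detected on any array of at least 1 drug at 1 time, so their changes are fitted values that involve levels at background. For the genes not called over both times the fit averages unlike differences. The change between times includes whatever differs between the 8 h and 24 h arrays of each drug, and the vehicle controls carry no time. By the described positions 0 probes passed this test, so each of these changes rests on the columns of the value table. Groups held 2 or 3 arrays, too few for a check of single arrays that lie far from their group.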

How the results depend on the processing

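Everything here turns on which table's assignment of arrays is right. With neqc values assigned by the described positions, an alternative added after seeing the data although it is the planned fit, 305 probes passed over both times, 61 at 8 h, 0 at 24 h and 0 for the change between times. Some named genes called under neither assignment turned sign, such as AHNAK2 (-0.54 to 1.23), and are not listed here. Of 104 named genes 62 others turned sign over both times, each called under at least 1 assignment. Those higher under ciclopirox there had log2 differences of HMGCS1 0.72, MSMO1 0.96, INSIG1 0.66, IL24 2.27, SLCO4A1-AS1 1.27, FGFBP1 0.58, DHCR7 0.46, SQLE 0.72, MVK 0.63, TRIML2 1.18, LPIN1 0.86, NPFFR2 1.08, HMOX1 0.29, CYBRD1 0.14, FTL 0.37, ABCC2 0.69, SQSTM1 0.57, CDKN1B 0.0045, CDKN2B 0.39, KLF6 0.23, DUSP4 0.51, ERBB3 0.31, MST1 0.90, IGF1R 0.19, GPNMB 0.37, NEU1 0.61, IFIT1 0.037, IFIT3 0.11, IFI6 0.24, KDM5B 0.58, SAT1 0.78, PDGFRB 0.072, CDKN1A 1.76 and TRIM51 0.041. Those lower there had EDN1 -0.55, VLDLR -0.38, HECW2 -0.0082, IL18R1 -0.015, PLXNA2 -0.31, SERPINA3 -1.01, JAG1 -0.011, ADAMTS6 -0.34, XYLT1 -1.02, HK2 -0.68, SLC2A1 -0.42, PFKFB3 -0.31, HSPA5 -0.48, GADD45B -0.10, MCM10 -0.72, CDC6 -0.67, E2F2 -1.12, JUN -0.44, CCN2 -0.63, CXCL8 -0.29, P4HA1 -0.056, RRP9 -0.21, CCND1 -0.36, PMAIP1 -0.042, THBS1 -0.69, COL4A1 -0.31, COL4A2 -0.28 and URB2 -0.31. The cause of the conflict was not tested.

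With arrays assigned as in the value table, none of the other alternatives run turned the sign of a called difference among the named genes (0 of 104). neqc on the matched arrays, also added after seeing the data, called 1287 probes over both times, and 651 of the 733 genes were called again in the same direction. Without the filter on dim probes the counts were 454 over both times, 188 at 8 h, 1013 at 24 h and 190 for the change between times. With an offset of 50 they were 745 at 8 h and 1158 for the change, and with array weights 737 at 8 h and 1324 at 24 h. Without a term for time 206 probes passed over both times. Leaving out 1 array at a time gave 521 to 832 over both times, 195 to 406 at 8 h, 1044 to 1865 at 24 h and 251 to 433 for the change between times. Why the counts moved was not tested.

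At 8 h replicate numbers did not pair the arrays: deviations of same-numbered arrays correlated at -0.0439, -0.0921 and 0.0318 across probes. At 24 h the correlation was 0.366 for same-numbered and -0.366 for other-numbered arrays. With 2 arrays per group this is a single value, so pairing at 24 h cannot be told from it. A block for the replicate number left 336 probes past the threshold over both times, 248 at 8 h, 1773 at 24 h and 312 for the change between times. With it 36 named genes no longer passed. Not all of the 104 named genes had passed without the block, so the share lost among called genes is larger than 36 of 104.

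The data are limited to groups of 2 or 3 arrays on 1 chip, 1 cell line, 1 dose per drug and controls without a time. Of the 733 genes 38 were not detected under 1 of the drugs, so their folds are at best bounds.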

Other observations

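H2BC12, a histone gene, stood at 191 and 226 under ciclopirox and 569 and 525 under crizotinib at 24 h, against 269.5 and 287 in the controls. AHNAK2, a large scaffold protein gene just outside the threshold over both times, stood at 838 and 972 under ciclopirox and 1667 and 1961 under crizotinib at 24 h, against 361 and 353 in the controls, so both drugs lay above the controls at 24 h and crizotinib further. A second, dimmer AHNAK2 probe passed over both times (-0.65, limma adjusted p = 0.0211). TRIM51 stood at 79.5 and 101 under ciclopirox and 294 and 277 under crizotinib at 24 h, against 296 and 279 in the controls. Crizotinib thus lay at the level of the controls at 24 h and ciclopirox below it.

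CD68, a lysosomal glycoprotein gene that also serves as a leukocyte marker, had no call over both times and stood at 364 and 465 under ciclopirox and 634 and 685 under crizotinib at 24 h, against 313 and 299 in the controls. LUM, a fibroblast marker, stood at 22.1 and 24.8 under ciclopirox and 65.5 and 56.6 under crizotinib at 24 h, against 39.2 and 36.2 in the controls. Other leukocyte and fibroblast markers were largely undetected, and the part of other cells in these levels was not tested.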
